A study of Mus musculus with 15 samples.

Results

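The 31 genes described here encode the constitutive subunits of the proteasome: the 7 subunits of the alpha ring (Psma1 to Psma7), the 7 of the beta ring (Psmb1 to Psmb7), the 6 ATPases (Psmc1 to Psmc6) and 11 other subunits of the regulatory particle (Psmd1, Psmd2, Psmd3, Psmd4, Psmd6, Psmd7, Psmd8, Psmd11, Psmd12, Psmd13 and Psmd14). They were picked by gene symbol, and all 31 were found among the 20696 genes of the expression table. RNA sequencing was done on 15 libraries of mouse hematopoietic stem cells (HSCs), which had been sorted by flow cytometry out of bone marrow. The groups were labelled aged Thbs1 knockout (18 months), aged control (18 months) and young control (3 months), with n = 5 each. Thbs1 encodes thrombospondin 1, a secreted matrix protein. The labels give no strain, no detail of the knockout allele and no word on whether each library came from a separate animal, so p-values measure only the spread between these libraries, part of which may be technical. The labelled knockouts held 3 female and 2 male libraries, the aged controls 2 and 3, and the young controls 3 and 2. Values are FPKM, fragments scaled by gene length and sequencing depth. Levels compared between genes depend on the length used, for which the processing notes give no setting. For Psmd1, for example, all annotated exons span 7265 bases and the longest transcript 3112.

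The proteasome is the cell's main machine for degrading proteins tagged with ubiquitin. Its barrel-shaped core has alpha rings at the ends, which gate the entrance, and beta rings inside, which hold the proteolytic sites. A regulatory particle docks on the alpha ring: its ATPases unfold the substrate and push it into the core, and its other subunits bind and remove ubiquitin. All subunits are needed in fixed proportions in the assembled particle, and in mammalian cells with impaired proteasomes their genes are raised together by the transcription factor encoded by Nfe2l1, which binds antioxidant response elements. HSCs are known for low protein synthesis and for their dependence on protein quality control.

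Promoter windows were available for 25 of the 31 genes in RefSeq (GRCm38.p6), each running from 250 bases before to 50 after the gene's start. The sequences shown are those with the antioxidant response element core, because it is the element through which the genes are known to be co-regulated. Searched on both strands, TGACNNNGC was found in 4 of 25 genes (16%, against 12.4% of 32851 promoter windows), namely Psmb5 and Psmb6 of the beta ring, the ATPase gene Psmc6 and Psmd12. CCGGAAG, an ETS factor core, was found in 10 (40%, against 8.86% of all windows), CCAAT in 10 (40%, against 37.4%) and the GC box GGGCGG in 15 (60%, against 35.7%). The 25 genes had 27 windows, and a gene was counted if any of its windows matched. Shares over all promoters are of single windows, so the units differ. Capitals in the sequences mark TGACNNNGC and CCGGAAG on either strand, and the capitals of these motifs do not overlap; a match describes letters and not a bound site.

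Psmb5 (chr14:54617946-54618245, minus strand): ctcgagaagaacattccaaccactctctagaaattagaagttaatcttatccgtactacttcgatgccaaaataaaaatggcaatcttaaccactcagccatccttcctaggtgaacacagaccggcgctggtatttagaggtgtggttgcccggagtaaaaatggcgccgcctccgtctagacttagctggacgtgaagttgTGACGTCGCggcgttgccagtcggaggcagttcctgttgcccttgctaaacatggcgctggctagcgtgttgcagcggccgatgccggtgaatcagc
Psmb6 (chr11:70525107-70525406, plus strand): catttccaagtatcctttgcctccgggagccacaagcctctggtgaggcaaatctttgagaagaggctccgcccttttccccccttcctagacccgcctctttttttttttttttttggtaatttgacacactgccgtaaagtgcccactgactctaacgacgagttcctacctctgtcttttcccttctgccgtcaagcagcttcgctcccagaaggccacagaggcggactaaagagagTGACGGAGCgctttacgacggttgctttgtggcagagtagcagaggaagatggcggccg
Psmc6 (chr14:45329574-45329873, plus strand): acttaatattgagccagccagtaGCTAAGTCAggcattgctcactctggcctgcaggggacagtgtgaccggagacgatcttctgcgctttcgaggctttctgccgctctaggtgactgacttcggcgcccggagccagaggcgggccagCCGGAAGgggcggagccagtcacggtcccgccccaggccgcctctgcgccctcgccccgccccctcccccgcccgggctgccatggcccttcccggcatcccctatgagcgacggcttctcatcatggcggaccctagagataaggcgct
Psmd12 (chr11:107479278-107479577, plus strand): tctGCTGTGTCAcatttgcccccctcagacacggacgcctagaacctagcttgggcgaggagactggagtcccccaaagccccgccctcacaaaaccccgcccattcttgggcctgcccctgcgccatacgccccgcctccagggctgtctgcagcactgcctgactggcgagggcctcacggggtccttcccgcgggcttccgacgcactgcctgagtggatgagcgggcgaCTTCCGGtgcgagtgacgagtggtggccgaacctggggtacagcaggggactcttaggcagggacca

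The element began at -47 from the RefSeq start in Psmb5, -9 in Psmb6, -227 in Psmc6 and -247 in Psmd12. Of these 4 genes, Psmc6 and Psmd12 were among those that differed between female and male libraries, and Psmb5 and Psmb6 were not, as described further on.

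Depth, recovered from the rounding steps of the values, was 16600000 to 28600000 reads in genes per library. Libraries were assigned to groups by the titles in the table; the sample descriptions pair library names and titles differently for 10 of the 15 columns. All 12 HSC markers were present, with a summed level of 782.1 to 1003 FPKM in labelled knockouts, 1133 to 1226 in aged controls and 927.3 to 985.9 in young controls. Summed levels of the lists for other cells, given as lowest to highest in labelled knockouts, aged controls and young controls, were 29.75 to 55.51, 36.24 to 64 and 34.32 to 45.23 FPKM for B cells and 29.25 to 61.17, 67.73 to 134.6 and 53.42 to 104.4 FPKM for T and NK cells. Erythroid markers summed to 42.28 to 240.3, 57.21 to 368.3 and 72.78 to 162.9 FPKM. The macrophage and dendritic cell list summed to 6.51 to 14.12, 7.38 to 13.01 and 8.82 to 14.16 FPKM. Mast cell and basophil markers reached 1.76 to 5.67, 3.41 to 8.26 and 2.69 to 7.2 FPKM. For endothelial and stromal markers the sums were 7.09 to 12.26, 11.74 to 15.08 and 9.7 to 13.65 FPKM. Ms4a1 and Ebf1 of the B cell list, Cd3d and Cd3g of the T and NK cell list and Adgre1 and C1qa of the macrophage list stayed under 1 FPKM in every library, while Klrb1c of the T and NK cell list was called lower in labelled knockouts than in aged controls and higher in aged than in young controls. The part of other cells in the results was not tested. Markers of neutrophils and myeloid progenitors summed to 160.1 to 383.8 FPKM in labelled knockouts, 194.6 to 379.5 in aged controls and 91.72 to 142.9 in young controls. Megakaryocyte markers, some of which HSCs also express, summed to 171.8 to 350.9, 293.5 to 1995 and 389.3 to 501 FPKM in the same order of groups. Beside Klrb1c, the markers Ly6a, Itga2b and Gp1bb were called lower in labelled knockouts than in aged controls. Procr, Ly6a, Hoxb5 and Prtn3 were called higher in aged than in young controls. Of Ppbp, Gp1bb and Itga2b, 2 were called higher and 1 lower there. Prtn3 was called higher and Ppbp lower in labelled knockouts than in young controls. Shares of all genes called are given below. Labelled knockouts 2 and 5 stood apart: ribosomal RNA took 2.16% and 0.68% of their reads, against 0.16% to 0.37% in the other libraries. Their levels, relative to the mean of all libraries, also correlated most negatively with transcript length over the genes tested. The r was -0.443 and -0.444, against -0.253 to 0.438 in the other libraries. Thbs1, which checks the label, averaged 10.4 ± 7.84 FPKM in labelled knockouts, 2.90 ± 3.84 in aged controls and 4.24 ± 5.28 in young controls (SD, n = 5 each). It differed more between female and male libraries (log2 difference 2.30, limma adjusted p = 0.000147) than between labelled knockouts and aged controls (1.73, limma adjusted p = 0.302), and the groups hold different numbers of each sex. Among female libraries it was 12.7 to 17.9 FPKM in labelled knockouts, 4.90 to 8.75 in aged controls and 2.42 to 13.4 in young controls; among male libraries it was 1.69 to 2.53, 0.01 to 0.62 and 0.70 to 0.76 FPKM. In neither sex was it lower under the knockout label than in aged controls, and every direction given here is for libraries labelled aged Thbs1 knockout.

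All 31 subunit genes were expressed in every library and passed the filter for testing, a mean of at least 1 FPKM. Mean levels over the 15 libraries ran from 15.3 FPKM for Psmd1 to 315 FPKM for Psmb1. In the alpha ring, means ran from 63.3 FPKM for Psma3 to 222 FPKM for Psma6, and in the beta ring most lay between 93.7 FPKM (Psmb3) and 315 FPKM (Psmb1). Psmb7, which carries the trypsin-like site, was low among them at 15.7 FPKM; the annotation gives it 3421 bases of exon on GRCm38, part of it shared with Nek6 on the other strand. The other catalytic genes of the ring, Psmb6 (caspase-like site) and Psmb5 (chymotrypsin-like site), averaged 179 and 119 FPKM. The ATPase genes ran from 16.7 FPKM (Psmc6) to 115 FPKM (Psmc5), and the other regulatory subunits from Psmd1 to 104 FPKM for Psmd7, the inactive partner of the deubiquitinase encoded by Psmd14. Each gene's highest library exceeded its lowest by 1.39-fold to 3.78-fold (median 1.93-fold), with Psmc6 the most variable member. The genes lie on 14 chromosomes. Exons of 8 of them overlap another annotated gene, in 7 cases on the opposite strand, and whether counting used strand is not given in the sources used here; such pairs may share reads.

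Labelled knockout 5 had the highest level of 22 of the 31 genes. Summed over the subunits, it reached 4164 FPKM, against 2455 to 3101 FPKM in the other labelled knockouts, 2640 to 3241 in aged controls and 2422 to 3125 in young controls. As a share of all FPKM in the library, the subunits took 0.70% there, inside the range of the other 14 libraries, 0.49% to 0.90%. The sums averaged 3087 ± 649 FPKM in labelled knockouts, 3018 ± 240 in aged controls and 2810 ± 293 in young controls (SD, n = 5 each), and the 3 ranges overlap.

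**Figure D1:**
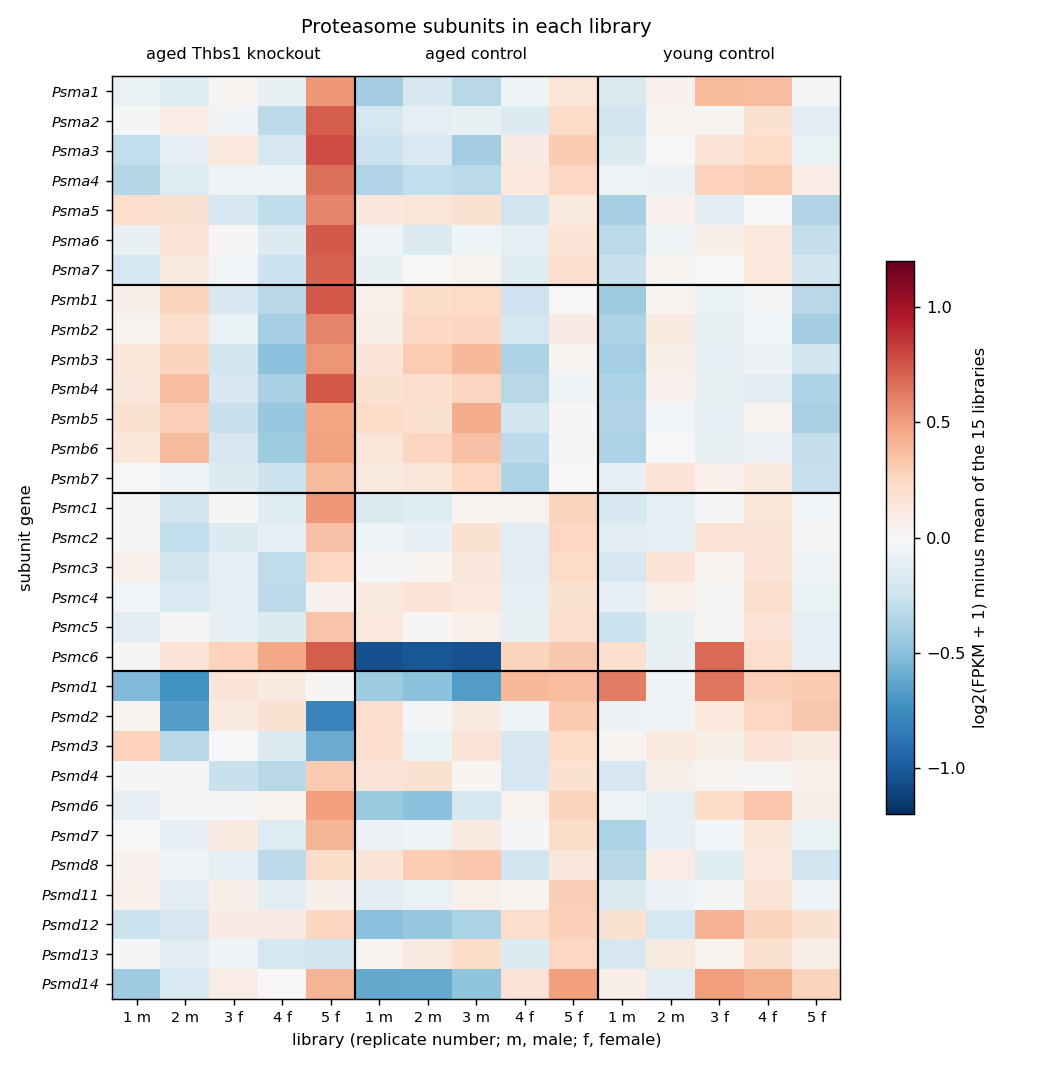
Level of each subunit gene (rows) in each library (columns), as log2(FPKM + 1) minus the gene's mean over the 15 libraries. Labelled knockout 5 is high for most of the alpha and beta ring, and aged controls 1 to 3, the male libraries of that group, are low for Psmc6, Psmd12 and Psmd14.

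The first comparison asked whether subunit levels in aged HSCs differed under the knockout label. None of the 31 genes passed the test (limma on log2(FPKM + 1), two-sided, Benjamini-Hochberg adjusted p under 0.05 over 11345 genes); 1 had an unadjusted p under 0.05. Over all genes tested, 1.55% were called in this comparison. The log2 differences of the subunits had a median of -0.01 (15 positive and 16 negative), beside -0.03 for all genes tested. For 30 of the 31 genes the 95% interval of the difference lay within a 2-fold change in either direction, and for 28 within 1.5-fold. Without labelled knockouts 2 and 5, 6 differences were positive and 25 negative (median -0.13), among them all 7 of the beta ring. In bulk libraries, a lower level of a transcript in each cell and fewer cells that carry it cannot be told apart.

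The exception among the intervals was Psmc6, one of the ATPases (ENSMUSG00000021832, GRCm38 chromosome 14, 45329788 to 45349705), whose promoter is shown above. Its level was 15.61, 17.46, 19.02, 21.70 and 26.23 FPKM in labelled knockouts 1 to 5, against 6.94, 7.09, 6.98, 18.91 and 19.62 FPKM in aged controls 1 to 5. The groups overlap: aged controls 4 and 5, both female, reached the level of the labelled knockouts, while the 3 male aged controls lay below all of them. The difference was 0.83 on the log2 scale (SE 0.27, 95% interval 0.27 to 1.40, limma adjusted p = 0.154). It passed the test without aged control 5 (1.04, limma adjusted p = 0.0388). Among male libraries (2 labelled knockouts, 3 aged controls) it was 1.13 (limma adjusted p = 0.0137). Among female libraries it was 0.19 (limma adjusted p = 0.903). Both come from a fit of all 15 libraries with a mean per group and sex, so the spread is shared between the sexes. A test of whether the Psmc6 difference was unlike between the sexes gave a limma adjusted p of 0.999.

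The alpha ring genes, which form the gate, all had positive differences from aged controls, from 0.02 for Psma5 to 0.22 for Psma1 on the log2 scale (median 0.15), and none passed the test. Psma1 had 79.02, 75.32, 85.25, 78.14 and 120.3 FPKM in labelled knockouts, against 62.20, 72.67, 65.92, 80.48 and 92.37 FPKM in aged controls (limma adjusted p = 0.573). The ranges overlap, and labelled knockout 5 was the highest library. Without labelled knockouts 2 and 5, only 1 of the 7 alpha ring differences was positive (median -0.03), and under quantile normalization 6 were. With GC and length trends removed 5 were positive (median 0.04). Levels of the beta ring genes lay closer, with differences of -0.08 to 0.08. Psmb5 had 132.53, 142.19, 96.90, 84.50 and 162.3 FPKM in labelled knockouts, against 137.02, 132.67, 159.2, 98.63 and 117.82 in aged controls (log2 difference -0.08, SE 0.18, limma adjusted p = 0.881). Psmb5 ranged more widely in the labelled knockouts, with their highest and lowest libraries outside the range of the aged controls.

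Among the 11 non-ATPase regulatory subunits, differences from aged controls ran from -0.34 for Psmd2, a scaffold of the base, to 0.24 for Psmd6, a subunit of the lid. Psmd13, another lid subunit, had the smallest p of this class. Its level was 35.44, 32.51, 34.47, 30.85 and 30.34 FPKM in labelled knockouts, against 36.69, 38.66, 41.92, 31.86 and 42.80 FPKM in aged controls. The labelled knockouts lay low, and aged control 4 fell among them (log2 difference -0.22, SE 0.11, limma adjusted p = 0.430). Psmd2 had 60.12 and 54.32 FPKM in labelled knockouts 2 and 5, and 97.44 to 108.12 in the others, against 92.00 to 118.81 in aged controls. Its low values thus fell in the libraries with most ribosomal RNA; their part in the difference was not tested.

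**Figure D2:**
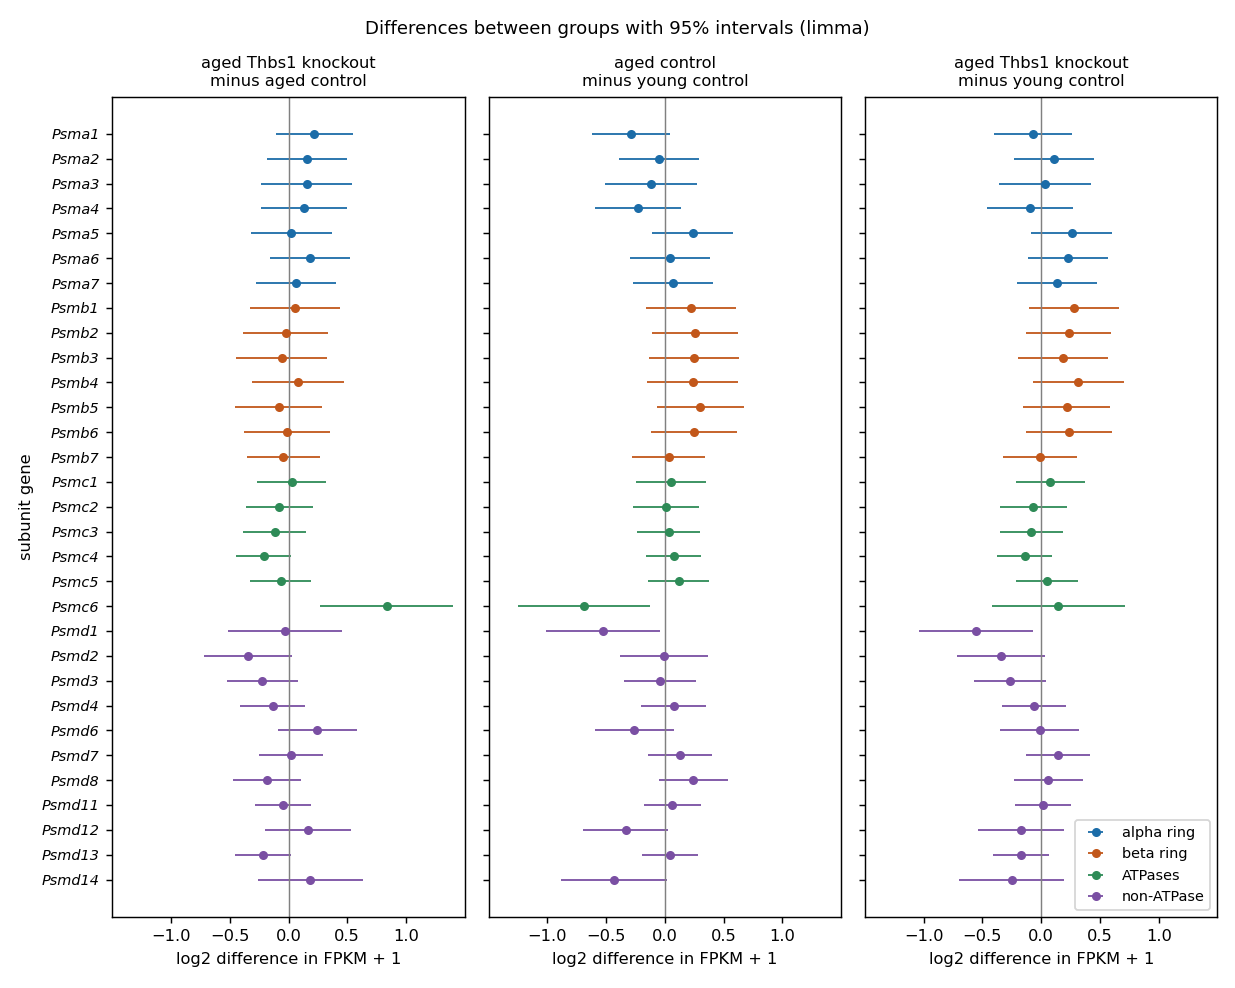
Log2 difference in FPKM + 1 for each subunit gene (points) with its 95% interval from limma (bars), in the 3 comparisons between groups, coloured by the part of the proteasome. Intervals of most genes include 0; Psmc6 stands to the right in the first panel and to the left in the middle one, and Psmd1 to the left in the middle and right panels.

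The second comparison set aged controls against young controls. Again none of the 31 genes passed the test, 2 had an unadjusted p under 0.05, and 4.42% of all genes tested were called. The median log2 difference was 0.05 (20 positive, 11 negative), beside -0.02 over all genes. Intervals lay within a 2-fold change for 29 genes and within 1.5-fold for 18, so for the others a 1.5-fold change was not outside the interval. Under quantile normalization 10 of the 31 differences were positive, and without aged control 5 there were 15.

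All 7 beta ring genes had positive differences with age (median 0.25, from 0.03 for Psmb7 to 0.30 for Psmb5), and none passed the test. The median was 0.07 under quantile normalization and 0.09 with GC and length trends removed, with all 7 still positive. Psmb5 had 137.02, 132.67, 159.2, 98.63 and 117.82 FPKM in aged controls, against 90.44, 113.82, 107.35, 119.73 and 88.91 FPKM in young controls. The male aged controls were above every young control, and the female ones were within their range (log2 difference 0.30, SE 0.18, limma adjusted p = 0.335). Among male libraries all 7 beta ring differences were positive (median 0.37), and among female libraries 4 of 7 (median 0.01). The alpha ring was mixed, with 3 positive and 4 negative. Psma1 had 62.20, 72.67, 65.92, 80.48 and 92.37 FPKM in aged controls and 73.68, 86.16, 108.67, 108.15 and 81.73 FPKM in young controls, with overlapping ranges (-0.29, SE 0.16, limma adjusted p = 0.302).

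Psmc6 was lower in aged controls on average, with the 3 male libraries at about 7 FPKM against 17.86, 14.54, 25.46, 18.12 and 14.41 FPKM in young controls. The 2 female aged controls, at 18.91 and 19.62 FPKM, were inside the range of the young controls. The log2 difference was -0.69 (SE 0.27, limma adjusted p = 0.167), and -0.90 without aged control 5 (limma adjusted p = 0.0361). Among male libraries it was -1.10 (limma adjusted p = 0.00700), and among female libraries 0.03; the test of a difference between the sexes gave a limma adjusted p of 0.465. With libraries grouped by the names in the sample descriptions the sign turned, to 0.80 (limma adjusted p = 0.834). In that grouping the young controls were all male, the knockouts all female and the aged controls of both sexes. Label and sex thus cannot be told apart in it. The same aged controls enter this comparison and that with the labelled knockouts, so the opposite signs of Psmc6 in them are not independent.

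Psmd1, a scaffold subunit of the base (ENSMUSG00000026229, GRCm38 chromosome 1, 86064387 to 86139151), showed the other unadjusted p under 0.05. It had 10.62, 10.08, 8.78, 19.38 and 19.22 FPKM in aged controls, against 22.88, 14.17, 23.29, 18.00 and 18.39 FPKM in young controls. Once more the male aged controls were below all young controls and the female ones were not (log2 difference -0.53, SE 0.23, limma adjusted p = 0.211). Among male libraries it fell by 0.82 on the log2 scale (limma adjusted p = 0.0214), and among female libraries the difference was -0.03 (limma adjusted p = 0.501 for a difference between the sexes). Grouped by the names in the sample descriptions, it was 0.20 (limma adjusted p = 0.997), with label and sex mixed as described above. The annotated exons of Psmd1 overlap those of Gm21972 on the same strand and of Htr2b on the other.

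A further comparison set labelled knockouts against young controls. None of the 31 genes passed the test, 1 had an unadjusted p under 0.05, and 1.63% of all genes tested were called. The median log2 difference of the subunits was 0.03 (17 positive, 14 negative), beside -0.06 over all genes, and 30 of 31 intervals lay within a 2-fold change. Psmd1 had 9.83, 8.40, 16.41, 15.85 and 14.75 FPKM in labelled knockouts; with young controls at 14.17 to 23.29 FPKM, the ranges overlap. The difference was -0.56 (SE 0.23, limma adjusted p = 0.189), and -0.92 among male libraries (limma adjusted p = 0.0324), beside -0.32 among female libraries; the test between the sexes gave a limma adjusted p of 0.648. Grouped by the names in the sample descriptions, it was 0.41 (limma adjusted p = 0.474), there between female libraries only and male libraries only. Under quantile normalization 9 of the 31 differences were positive. Of the 11 non-ATPase regulatory subunits 8 had negative differences, with a median of -0.17.

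In the beta ring, 6 of 7 differences from young controls were positive (median 0.23), 4 of 7 under quantile normalization and 3 of 7 without labelled knockouts 2 and 5. Psmb4, a structural beta ring subunit, had 137.51, 161.81, 109.45, 95.15 and 208.48 FPKM in labelled knockouts, against 96.36, 129.35, 117.74, 113.82 and 96.27 FPKM in young controls. Labelled knockouts 1, 2 and 5 were above all young controls and labelled knockout 4 was below them (0.32, SE 0.19, limma adjusted p = 0.315). Psma5 of the alpha ring had 198.1, 193.25, 147.87, 137.82 and 256.81 FPKM in labelled knockouts, against 129.09, 177.08, 155.17, 171.47 and 132.81 FPKM in young controls (0.26, limma adjusted p = 0.344). The ATPase gene Psmc4 was close in both groups, at 61.62 to 79.98 FPKM in labelled knockouts and 71.76 to 88.92 FPKM in young controls (-0.14, limma adjusted p = 0.451). No subunit gene had ranges of FPKM that lay apart between the groups in any of the 3 comparisons; among all genes tested the ranges lay apart for 2.34% (labelled knockouts against aged controls), 7.16% (aged against young controls) and 4.5% (labelled knockouts against young controls).

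The library names in the table give a sex, and the subunits differed between female and male libraries with group as a covariate. In all, 6 genes were higher in the 8 female libraries than in the 7 male ones and none was lower, beside 12.9% of all genes tested called in either direction and 9.67% called higher. The 6 were Psmd14, Psmd12, Psmd1, Psmc6, Psma4 and Psmd6. Male libraries come first in the numbering of every group, and number 3 alone was male in aged controls and female in the other groups. Sex and any batch that follows the numbers were therefore almost wholly mixed and cannot be cleanly told apart.

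Psmd14, which encodes the deubiquitinase that removes ubiquitin chains from substrates, had a lowest, median and highest level of 30.58, 38.8 and 43.47 FPKM in female libraries, against 19.53, 22.35 and 32.27 FPKM in male libraries. Young control 1 was the male library inside the female range (log2 difference 0.60, SE 0.11, limma adjusted p = 0.00527). Psmd12, a lid subunit, lay at 32.65, 36.1 and 41.03 FPKM in female libraries and at 21.31, 25.31 and 34.82 FPKM in male libraries. Here too young control 1 was the highest male (0.46, SE 0.09, limma adjusted p = 0.00874). Psmd1 lay at 14.75, 18.2 and 23.29 FPKM in female libraries and at 8.40, 10.08 and 22.88 FPKM in male libraries (0.59, SE 0.13, limma adjusted p = 0.0143). Young control 1 held that highest male value, above all but 1 of the female libraries.

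Psmc6 differed by 0.65 (SE 0.16, limma adjusted p = 0.020), with 14.41, 19.3 and 26.23 FPKM in female libraries and 6.94, 14.54 and 17.86 FPKM in male libraries. Psma4, the called member of the alpha ring (GRCm38 chromosome 9, 54950790 to 54958030), had 60.32, 71.6 and 99.62 FPKM in female libraries against 48.65, 51.03 and 60.13 FPKM in male libraries. These ranges do not overlap, by a narrow margin; among all genes tested 0.996% had ranges apart between the sexes (log2 difference 0.41, SE 0.11, limma adjusted p = 0.0226). Psmd6, a lid subunit, had 39.27, 44.5 and 56.86 FPKM in female libraries against 28.12, 37.12 and 39.39 FPKM in male libraries, with 1 male library reaching the female range (0.35, SE 0.10, limma adjusted p = 0.0311). Psmd6 lost its call under 10 of 23 alternatives, 8 of which left out 1 library (limma adjusted p = 0.0152 to 0.304 over the alternatives). Without aged control 4 or without aged control 5, 3 genes passed the test (Psmd12, Psmd1 and Psmd14), and without labelled knockout 5 there were 8 higher and 1 lower, Psmb4. Counts over all genes moved too: 436 of 11350 and 412 of 11353 were called higher without aged control 4 or 5. Without labelled knockout 5, 1775 of 11326 were called higher and 1021 lower.

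**Figure D3:**
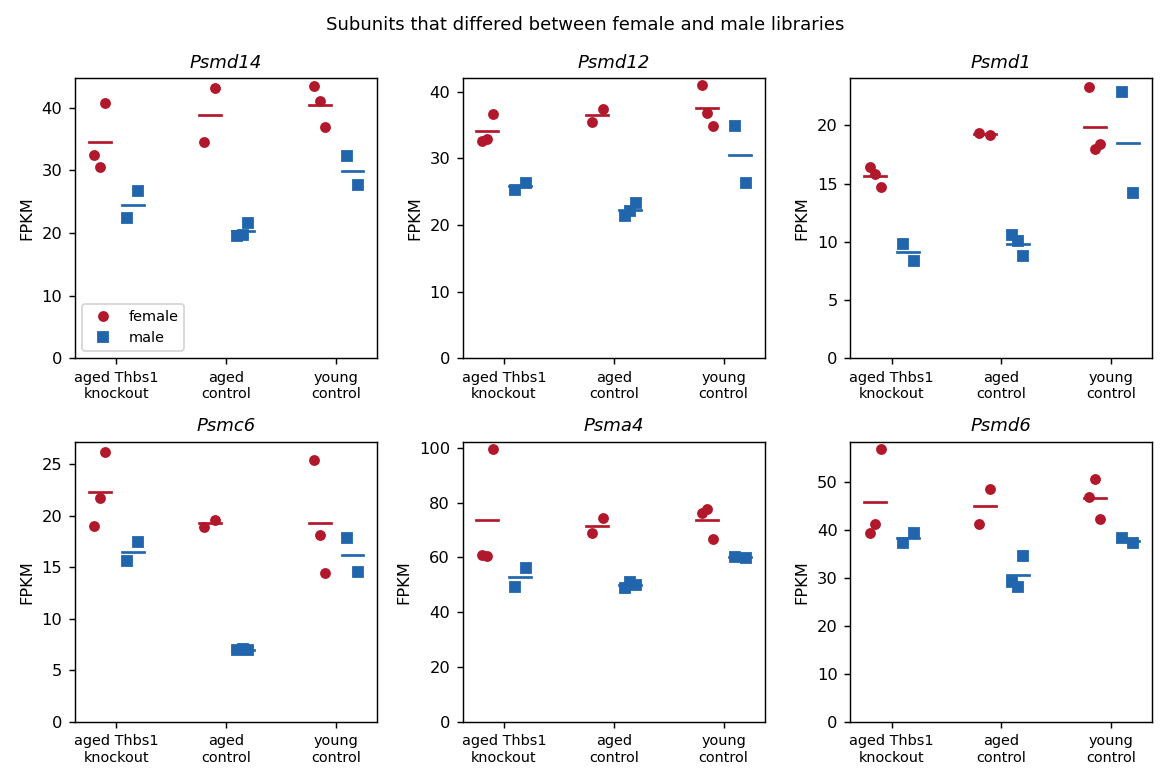
FPKM of the 6 subunit genes that were higher in female than in male libraries, by group, with 1 point per library and a bar at the mean. In aged controls and labelled knockouts the female points lie above the male ones for every gene shown, except Psmd6 in labelled knockouts, where they overlap; among young controls they overlap for Psmd1 and Psmc6.

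The beta ring went the other way without passing the test. All 7 of its genes had negative differences between female and male libraries, from -0.23 to -0.11 on the log2 scale (median -0.21; 5 of 7 negative under quantile normalization). Psmb6 had the smallest p of the ring, with 130.56, 159 and 245.79 FPKM as its lowest, median and highest level in female libraries, against 135.02, 194.1 and 228.35 FPKM in male libraries. Both ranges overlap almost wholly (-0.23, SE 0.13, limma adjusted p = 0.263). Of the 7 alpha ring genes 6 had positive differences (median 0.15), of the ATPases 5 of 6 (median 0.12) and of the other regulatory subunits 7 of 11 (median 0.15).

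The differences between female and male libraries followed the base composition of the transcripts. Across the 31 subunit genes, the log2 difference and the GC content of the longest transcript (36.97% to 57.36%) correlated at r = -0.561 (Spearman -0.544), and across 11339 genes at r = -0.530; genes share libraries and are not independent, so no p is given. With all tested genes cut into 5 equal bins by GC content, 13 subunit genes fell in the lowest 2 bins. All 6 called genes were among these 13, beside 20.5% of the 4542 genes of these bins called higher. In the bin with the highest GC content 0.309% of genes were called higher. Within libraries, log2(FPKM + 1) relative to the mean of all libraries correlated with GC content negatively in all 8 female libraries and in young control 1, a male library, and positively in the other 6 male libraries (0.15 to 0.49). With each library's GC trend removed, 1 subunit gene still passed the test, Psmd12 (0.32, limma adjusted p = 0.0441), and Psmd14 (0.34, limma adjusted p = 0.0660) and Psmd1 (0.41, limma adjusted p = 0.0518) lay just outside; over all genes the number called was then 347, against 1468. With GC and transcript length trends both removed, 5 passed, all but Psmd6. Of all 11345 genes tested, 419 were then called higher and 284 lower. All 7 beta ring differences stayed negative with the GC trend removed, and 6 of 7 with both.

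**Figure D4:**
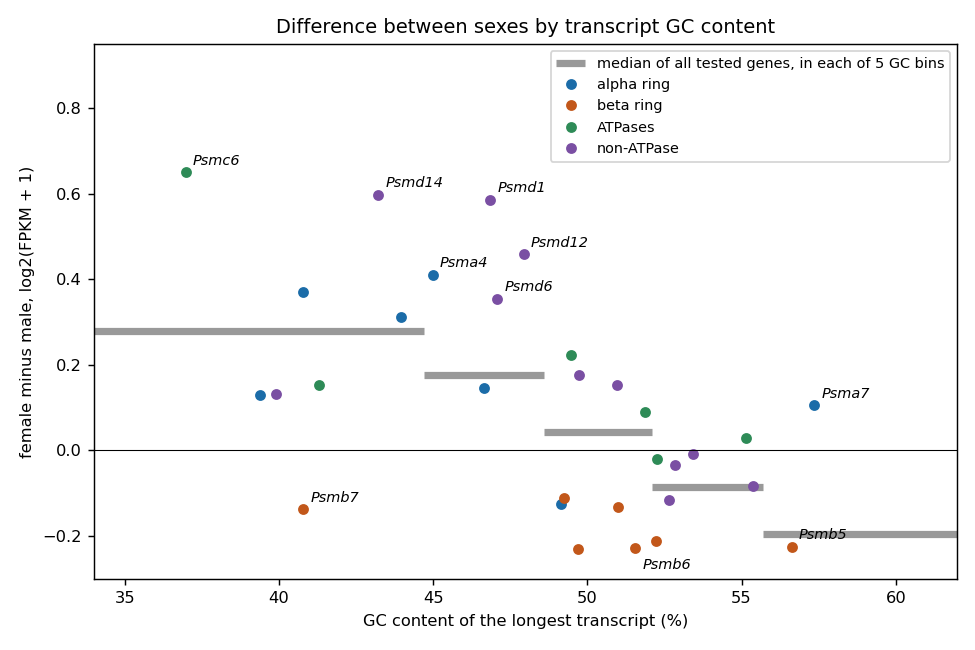
Difference between female and male libraries in log2(FPKM + 1) against the GC content of the longest transcript (%), with 1 point per subunit gene and grey lines at the median of all tested genes in each of 5 bins of GC content. The 6 called genes lie at 36.97% to 47.93% GC and above the grey lines, and Psmb7, at 40.79% GC, lies below zero as do the other beta ring genes.

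The group comparisons carried the same trend in part. Across the subunit genes, GC content correlated with the difference of labelled knockouts from aged controls at r = -0.599 (all genes -0.239), with that of aged from young controls at 0.556 (all genes 0.360) and with that of labelled knockouts from young controls at 0.06 (all genes 0.181). For the last of these, transcript length gave r = -0.558 (all genes -0.417). With the GC trend removed, Psmc6 differed by 0.68 in labelled knockouts against aged controls (limma adjusted p = 0.108) and by -0.48 in aged against young controls (limma adjusted p = 0.206).

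The inducible counterparts of the catalytic subunits were measured as transcripts, which do not give the composition of assembled cores. Psmb8, Psmb9 and Psmb10, the immunoproteasome subunits that replace Psmb5, Psmb6 and Psmb7, averaged 99.1, 67.9 and 129 FPKM over the 15 libraries, beside 119, 179 and 15.7 FPKM for the constitutive genes. The exon length of Psmb7 and its overlap with Nek6, given above, may bear on its value. Psmb8 averaged 96.7 ± 30.9 FPKM in labelled knockouts, 113 ± 24.7 in aged controls and 87.8 ± 11.7 in young controls (SD, n = 5 each). None of the 6 tested genes of this list, which also holds the activators Psme1 to Psme3, passed the test in any comparison of groups or of sexes (medians -0.23, 0.21 and 0.10 in the order of the comparisons above). Psme4, an alternative activator, was under the filter.

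Other genes of the pathway were counted in the same fit. None of 8 assembly chaperone genes, 15 proteasome-associated genes, 7 genes of transcriptional control, 12 ubiquitin and conjugating enzyme genes and 4 genes of the p97 segregase passed the test in the 3 comparisons of groups. The smallest adjusted p among them was 0.109, in the ubiquitin list between labelled knockouts and young controls. Nfe2l1 itself averaged 22.3 ± 7.5 FPKM in labelled knockouts, 25.6 ± 2.92 in aged controls and 27.0 ± 4.41 in young controls (SD, n = 5 each). Rps27a, which encodes a ubiquitin and ribosomal protein fusion, reached 636.97 and 874.07 FPKM in labelled knockouts 2 and 5, against 212.88 to 404.6 FPKM in all other libraries.

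Between female and male libraries 11 of the 46 tested genes of these lists were higher (23.9%, beside 9.67% of all genes called higher) and none lower. With each library's GC trend removed, 0 of the 46 passed the test, against 347 of all genes. Psmg2, an assembly chaperone of the alpha ring, averaged 97.8 ± 18.1 FPKM in 8 female libraries and 68.5 ± 9.98 in 7 male ones (SD; log2 difference 0.46, limma adjusted p = 0.0181). Of the associated genes, 4 of 15 were higher: the deubiquitinase gene Usp14 (0.47, limma adjusted p = 0.0153), the shuttle receptor genes Rad23b (0.40) and Ubqln1 (0.60), and Txnl1 (0.35), which encodes a thioredoxin-like protein bound to the regulatory particle. Of the 7 genes of transcriptional control 3 were higher. They were Ngly1 (0.55) and Ddi2 (0.53), which encode the enzymes that de-glycosylate and cleave the Nfe2l1 product, and Nfe2l2 (0.39), its relative in the oxidative stress response. The conjugating enzyme genes Ube2d3 (0.40), Ube2d2a (0.38) and Ube2n (0.32) were the called members of the ubiquitin list.

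Cell cycle genes were counted because dividing cells carry more of many transcripts. Of 23 tested genes, Cdk1 was lower in aged than in young controls (log2 difference -0.66, limma adjusted p = 0.0434). That is 4.35% of the list, beside 4.42% of all genes called, and with the GC trend removed Cdk1 was not called and Mcm7 was. All 23 differences of aged from young controls were negative (median -0.57, beside -0.02 over all genes tested). The same held for all 23 differences of labelled knockouts from young controls (median -0.73, beside -0.06). Genes of the list share libraries and are not independent. Pcna (-0.85), Rrm2 (-0.94) and Top2a (-0.97) were lower in labelled knockouts than in young controls (limma adjusted p = 0.0107, 0.0404 and 0.0451), 13% of the list beside 1.63% of all genes called, and also with the GC trend removed. Pcna was higher in female than in male libraries (0.38, limma adjusted p = 0.0245), and not called with the GC trend removed. The mean log2(FPKM + 1) of the list was 3.60 to 4.33 in labelled knockouts, 3.93 to 4.89 in aged controls and 4.63 to 4.86 in young controls. The mean of the 31 subunits over the same libraries was 5.97 to 6.52 in labelled knockouts, 6.06 to 6.34 in aged controls and 5.98 to 6.30 in young controls. Labelled knockout 5 had the lowest cell cycle mean and the highest subunit mean, and aged control 5 had the highest cell cycle mean and the second-highest subunit mean; whether the measures move together was not tested.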

How the data were processed

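Per the labels' protocols, sorted HSCs went into TRIzol-LS, and 2 ng of their RNA entered the SMART-Seq v4 kit. The submitters' processing notes name FastQC 0.11.5, STAR and edgeR and the build GRCm38 (mm10), with no order or settings. The authors deposited 1 table of FPKM with 2 decimals. Its 2 header lines pair library names with titles; the sample descriptions pair them otherwise for 10 of 15 columns. Columns were assigned by title, and sex was read from the library name. All 20696 identifiers were found in GENCODE M21.

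Reads were recovered from the rounding steps, taking all annotated exons of a gene as its length (at least 97.9% of held-out values whole within 0.1 reads). Held-out values were those under 25 reads in genes of more than 250 and up to 500 bases. For longer genes the length was not checked. Values were analysed as log2(FPKM + 1), which understates changes of low genes. A filter (mean FPKM 1 or more) left 11345 genes, fitted together with limma 3.58.1 (R 4.3.3; trended prior variance), tested on simulated data; all adjusted p-values are from such fits. The members, gene lists and tests were chosen with earlier results of these data known. Named members are those called (at most 6 per comparison) and, in a class with none called, that with the smallest p; Psmd2, Psmb8, Nfe2l1 and Rps27a were added after their values were seen. Alternatives covered offset, filter, scaling, covariates, column assignment and left-out libraries. Chosen after seeing the data were GC and length trends and differences within a sex. The latter came from a fit of all 15 libraries with a mean per group and sex. Libraries were not treated as pairs by replicate number.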

Additional observations from a re-analysis of the deposited data

Results flagged for a closer look

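In 93 sets of 5 libraries (31 genes in 3 groups), 6 held a library far from the other 4 relative to the range of the group; chance flags about 1 in 20 such sets. Labelled knockout 5 was high for Psma1, at 120.3 FPKM, and for Psmd6, at 56.86 FPKM. Aged control 4 was low for Psma5, at 144.18 FPKM, and for Psmc4, at 70.80 FPKM. Aged control 5 was high for Psma2, at 84.84 FPKM. Young control 1 was low for Psmd4, at 56.56 FPKM.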

How the results depend on the processing

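The count of 0 subunits called between groups held under all alternatives but these. Psmc6 was called higher in labelled knockouts than in aged controls and lower in aged than in young controls without aged control 5 (1 subunit each, and 0 to 1 over left-out libraries). Of all 11353 genes tested in that fit, 47 were called higher in the former comparison and 372 lower in the latter. Among male libraries 1 subunit was called higher in labelled knockouts than in aged controls (Psmc6), 2 lower in aged than in young controls (Psmc6 and Psmd1) and 1 lower in labelled knockouts than in young controls (Psmd1). Of all 11345 genes tested, the counts in the same order and direction among male libraries were 46 higher, 422 lower and 285 lower. Between the sexes, 11 subunits were higher under quantile normalization, 1 with the GC trend removed, and 3 to 8 higher and 0 to 1 lower over left-out libraries. Of all 11345 genes tested, 894 were called higher in females under quantile normalization and 208 with the GC trend removed.

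Counts over all genes moved more. By the library names in the sample descriptions they were 0, 0 and 15 (labelled knockouts against aged controls, aged against young controls, labelled knockouts against young controls). In that grouping the young controls were all male and the knockouts all female. Left-out libraries gave 91 to 225, 302 to 931 and 98 to 668, and 513 to 2872 between the sexes. Without labelled knockouts 2 and 5 they were 1035 (aged against young controls), 119 (labelled knockouts against young controls) and 2326 (sexes). Within females the counts were 30, 109 and 66, and within males 879 for aged and 390 for labelled knockouts, each against young controls. Removing GC and length trends gave 317, 794 and 508, and 703 between the sexes, where the GC trend alone left 347 and no filter 847. Sex as a covariate gave 429 for labelled knockouts against young controls. The causes were not tested.

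Same-numbered libraries, some of unlike sex, correlated at -0.455 to 0.527. The numbers were not treated as pairs, and whether they mark a pairing was not tested. A replicate block left 0 subunits called in all 3 comparisons, with 152, 499 and 158 genes called. Of the values of single named subunits, 461 kept direction and call, 6 gained a call, 19 lost one and 11 changed sign while uncalled, 7 of them with libraries grouped by the names in the sample descriptions. With 5 libraries per group, the 95% intervals of the subunits reached a median of 0.34 and at most 0.57 to each side on the log2 scale in the group comparisons. These widths are not detection limits.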
